A study of Mus musculus with 8 samples.

Results

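Armh4 was 1 of the 17191 genes listed for whole mouse hearts after 4 weeks of transverse aortic constriction (TAC), a narrowing of the aorta that loads the left ventricle with pressure. It was chosen by its measured values, namely the difference in its counts and FPKM (reads per length and depth) between the genotypes and its correlation with other genes over the 8 libraries, so both are given as descriptions without a test. The hearts came from mice with STAT3 S727A, a form of the transcription factor STAT3 with an alanine in place of a serine in its transactivation domain, where it can then not be phosphorylated (4 libraries), and from WT mice (4 libraries). All 8 libraries were of hearts with the same operation and duration. The labels place them in 1 batch and state no strain, age or sex and no animal behind a library.

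Armh4 encodes a membrane protein with an armadillo-like helical domain, once known in mouse as 3632451O06Rik. The human protein is described as binding gp130, the shared signal-transducing receptor of the interleukin 6 family, and as limiting phosphorylation of STAT3 on its tyrosine. It is also described as binding Rictor, a subunit of the kinase complex mTORC2, and as limiting AKT signaling. Cytokines of the interleukin 6 family, such as cardiotrophin 1 and leukemia inhibitory factor, act on cardiac myocytes through gp130, JAK kinases and STAT3, and SOCS proteins feed back on the pathway.

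The gene (NCBI gene 67419, ENSMUSG00000036242) lies on the minus strand of mouse chromosome 14, from 49675952 to 49783383 on GRCm38, and spans 107432 bases. Its annotated coding transcripts, of 8831 and 3100 bases, have 8 exons each. Counts divided by FPKM implied a length of 2724 to 2904 bases in the 8 libraries, near that of the shorter transcript. The antisense gene Gm36146, from 49722652 to 49744296 on the plus strand, lies inside the Armh4 span and was not analysed here. The libraries were stranded, but strand use in counting, not given in the sources used here, decides whether reads of the pair can be told apart.

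The 250 bases before the transcription start of Armh4 are shown because the mutated protein is a transcription factor. They come from RefSeq on GRCm38.p6, at chr14:49783384-49783633, minus strand, 5′ to 3′, with the match to a CCAAT box in capitals:
Armh4 promoter: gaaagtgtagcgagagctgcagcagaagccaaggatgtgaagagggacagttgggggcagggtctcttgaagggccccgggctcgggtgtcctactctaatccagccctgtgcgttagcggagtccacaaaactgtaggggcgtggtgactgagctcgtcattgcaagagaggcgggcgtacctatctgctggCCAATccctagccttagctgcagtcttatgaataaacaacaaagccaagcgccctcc
On both strands, the window held 1 match to CCAAT, which 33.8% of 32851 promoter windows of the same length held. It held no match to the STAT motif TTCNNNGAA (in 7.02% of windows), the AP-1 motif TGANTCA (6.75%), TATAAA (12.4%), CACGTG (6.02%) or GGGCGG (32.7%). These are matches of letters in the window, not sites shown to be bound.

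Total counts ran from 10577619 to 13305124 per library. Ventricular myocyte markers summed to 105100 to 115400 CPM in the S727A libraries and 99440 to 135100 CPM in the WT libraries, which fits the heart label. Counts of 4 Y-linked genes summed to 9 in S727A 4 and to 6 in WT 4, while the other 6 libraries held 1940 to 2225. Airway and lung markers summed to 142.5 CPM in WT 1 and 60.8 CPM in WT 4, against 0.0794 to 2.12 CPM elsewhere. Stat3 carries a changed codon, so its transcript level is no check of the labels.

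Armh4 was low in the S727A hearts. Its counts were 71, 67, 60 and 93 in S727A libraries 1 to 4, against 153, 151, 176 and 247 in WT libraries 1 to 4. In CPM, with library sizes scaled by TMM, this was 5.53, 5.32, 5.35 and 7.22 CPM in S727A, against 14.7, 14.1, 12.9 and 19.2 CPM in WT. No S727A library reached the WT range, and the highest of them, S727A 4, was at 0.56 times the lowest of the others, WT 3. Among the 12998 genes tested, 4.36% lay lower in this way and 4.07% lay higher.

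**Figure D1:**
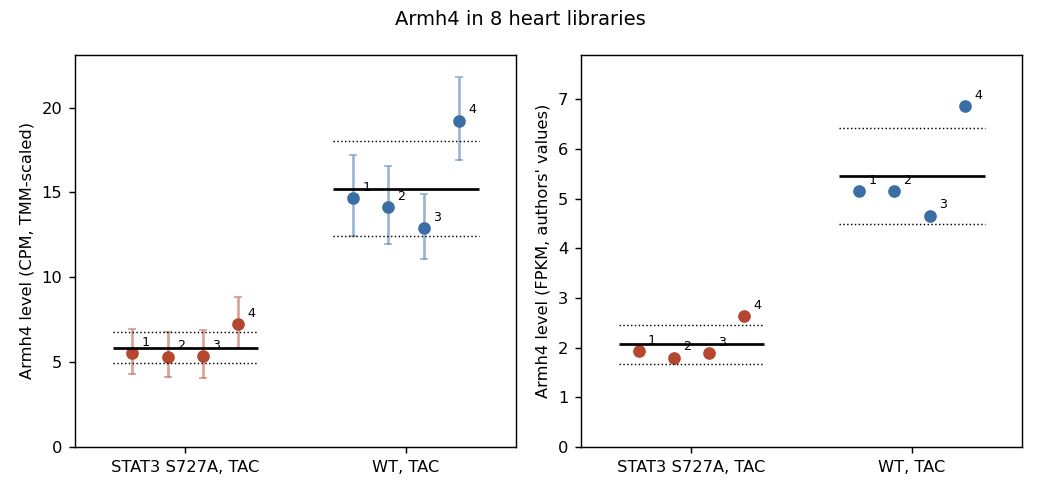
Armh4 in CPM (left) and in FPKM (right) for each library, numbered by replicate, with the group mean (solid line) and 1 SD on either side (dotted lines). Vertical bars on the CPM points are exact 95% Poisson intervals of the count. The S727A points lie between 5.32 and 7.22 CPM and the WT points between 12.9 and 19.2 CPM, and replicate 4 is the highest of each group.

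The mean level was 5.86 ± 0.917 CPM in S727A hearts and 15.2 ± 2.77 CPM in WT hearts (SD, n = 4 each), so the S727A mean was 38.45% of the WT mean. The edgeR log2 fold change was -1.38 ± 0.16 (SE). It is given with no test, since the gene was chosen for this contrast. In all, edgeR called 19 of the 12998 genes (0.146%), 13 of them lower (0.1%) and 6 higher (0.0462%), and nothing is read from this for Armh4. Of the genes tested, 44 had a log2 fold change below that of Armh4. The FPKM values, which divide by gene length, were 1.93, 1.80, 1.89 and 2.64 in S727A against 5.15, 5.15, 4.66 and 6.87 in WT, with means of 2.065 ± 0.387 and 5.46 ± 0.97 (SD, n = 4 each). The log2 ratio in the authors' deposited table was -1.38. In whole hearts, fewer cells of the type that expresses a gene and less RNA per cell cannot be told apart.

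The order of the CPM levels, from low to high, was S727A 2, 3, 1 and 4 and then WT 3, 2, 1 and 4. S727A 1 to 3 lay within 5.32 and 5.53 CPM, closer than their counting error of 11.9% to 12.9% (square root of the count over the count), so their order carries no information. WT 1 to 3 spanned 12.9 to 14.7 CPM, and their exact 95% Poisson intervals, of 129.7 to 179.3, 127.9 to 177.1 and 151 to 204 counts, overlap. Library 4 was the highest in each group, at 1.338 times the mean of the other 3 in S727A and at 1.385 times in WT. The interval of S727A 4, 75.06 to 113.9 counts, overlaps that of S727A 1, 55.45 to 89.56 counts. That of WT 4, 217.2 to 279.8 counts, lies above those of WT 1 to 3 only before scaling for depth. Total counts were 12608764 in WT 4 and 10577619 in WT 1. Scaled to CPM, the intervals of WT 4 and WT 1 overlap, so counting error does not separate these libraries. Over 4 libraries the coefficient of variation was 15.7% in S727A and 18.2% in WT, above the counting error of 10.4% to 12.9% and 6.36% to 8.14%. Counting intervals cover counting error only, since reads without molecular identifiers are not independent molecules.

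S727A 4 and WT 4 were also the libraries almost without Y-linked reads. Ddx3y, a Y-linked RNA helicase gene, was at 71.7, 80.3, 86.3 and 0.155 CPM in S727A 1 to 4 and at 83.6, 78.4, 73.3 and 0.0779 CPM in WT 1 to 4. In deviations from the group means, Ddx3y therefore had a Pearson r of -0.964 with Armh4 over the 8 libraries, and all 4 Y-linked genes lay below 0, with a median of -0.963. Only 2 libraries carry this pattern, and it was not tested. The Armh4 difference was as large among the other 6 libraries, with a log2 fold change of -1.36 ± 0.14, and -1.37 ± 0.12 with presence of Y-linked reads as a covariate (SE). Without the WT libraries that held airway markers, WT 1 and WT 4, it was -1.20 ± 0.18 (SE).

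**Figure D2:**
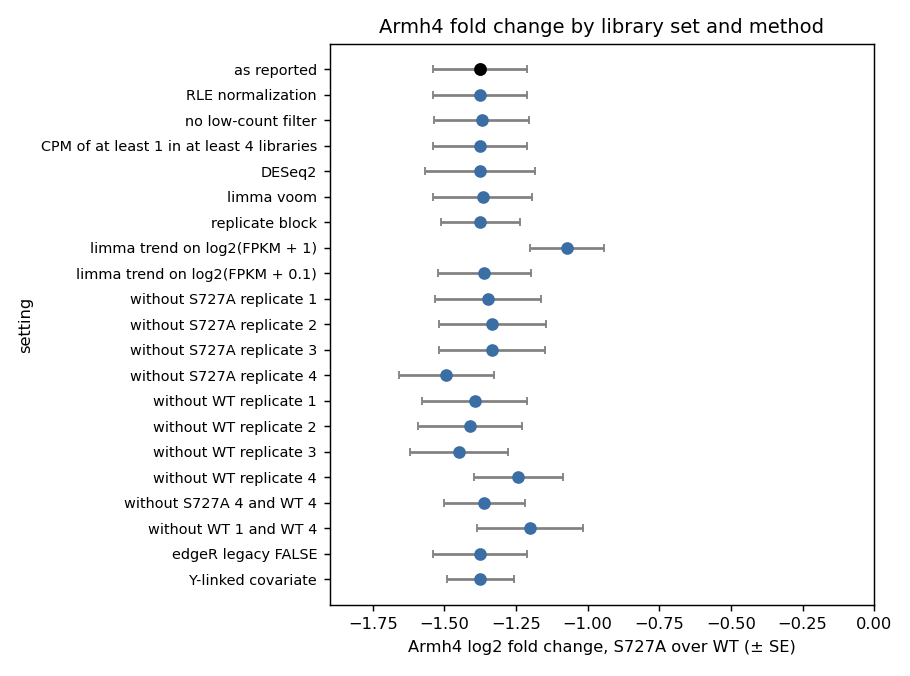
Armh4 log2 fold change of S727A over WT, with its standard error, for the reported setting (black) and each other library set, filter or method (blue). The values run from -1.49 without S727A replicate 4 to -1.07 with a pseudocount of 1 added to FPKM, and every one lies below 0.

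Armh4 was a gene of low to middling level. Its mean FPKM exceeded that of 32.2% of the genes tested. Set against the receptor it binds, its FPKM was 4.25%, 4.14%, 4.175% and 5.46% of that of Il6st, which encodes gp130, in S727A 1 to 4, and 9.48%, 9.01%, 8.51% and 13.65% in WT 1 to 4. The shares did not overlap between the groups. Against Rictor, Armh4 stood at 69.0% to 115.8% of its FPKM in S727A and at 173.9% to 282.7% in WT. These ratios rest on the Armh4 values and add no independent evidence.

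Genes of the pathways in which Armh4 is described to act were then compared between genotypes, with p-values adjusted over all 12998 genes. Of 95 genes tested over the pathway lists, 1 was called, lower in S727A, where 0.146% of all genes were called. At an unadjusted p under 0.05 there were 15 higher and 11 lower, 26 in all, where 17.8% of all genes reached it. DESeq2 called 3 of the 95, where it called 3.72% of all genes it tested, and limma voom called 0, where it called 0.0462%. The DESeq2 and limma voom counts do not stand apart from their backgrounds. The share of the 95 at an unadjusted p under 0.05 was above that of all genes, and no set test was run. The edgeR count rests on 1 gene, Hamp, which passed the low-count filter through its WT libraries.

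Most ligands were near the detection limit. Of 10 listed cytokine genes of the gp130 family, 9 were in the table and 3 were tested. Il6, Il11, Osm and Il27 had at most 7 counts in any library, and Lif and Cntf had 3 to 11. Ctf1, the cardiotrophin 1 gene, was at 4.20, 4.45, 3.30 and 8.93 CPM in S727A 1 to 4, against 7.67, 4.49, 6.59 and 7.71 CPM in WT 1 to 4. The groups overlapped, S727A 4 was the highest of all, and the log2 fold change of -0.34 ± 0.30 (SE) did not pass (edgeR adjusted p = 0.585). Ebi3, whose product is a subunit of interleukin 27, averaged 1.06 ± 0.291 CPM in S727A hearts and 2.39 ± 2.73 CPM in WT hearts (SD, n = 4; edgeR adjusted p = 0.393). The WT mean rested on WT 3 at 6.44 CPM, with 0.767 to 1.59 CPM in the other WT libraries, and without WT 3 the log2 fold change of -1.20 was 0.04.

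The receptors were abundant. Il6st was at 251, 239, 245 and 259 CPM in S727A 1 to 4, against 296, 310, 289 and 267 CPM in WT 1 to 4. The groups did not overlap, with a log2 fold change of -0.23 ± 0.08 (SE) that missed the threshold (edgeR adjusted p = 0.174). Lifr, the receptor of leukemia inhibitory factor, was at 33.2, 44.2, 33.4 and 42.7 CPM in S727A against 49.5, 66.1, 49.3 and 49.6 CPM in WT. These groups did not overlap either, and the log2 fold change of -0.48 ± 0.13 (SE) did not pass in edgeR (adjusted p = 0.128) but passed in DESeq2 (adjusted p = 0.0379). Of 8 receptor genes tested, edgeR called 0, 2 were lower and 0 higher at an unadjusted p under 0.05, and DESeq2 called 1. Over all genes, 17.8% had an unadjusted p under 0.05 and DESeq2 called 3.72%. The median log2 fold change of the 8 receptor genes was -0.19, beside 0.00 (-0.003) over all genes.

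Among JAK kinases and STAT factors edgeR called 0 of 10, 4 were lower and 0 higher at an unadjusted p under 0.05, and DESeq2 called 0. The last 2 shares were 17.8% and 3.72% over all genes. Stat3 itself was at 170, 169, 156 and 160 CPM in S727A 1 to 4, against 183, 180, 212 and 228 CPM in WT 1 to 4, with no overlap. Its log2 fold change of -0.29 ± 0.09 (SE) did not pass (edgeR adjusted p = 0.155). Stat5a, of a related factor, was between 21.9 and 24.7 CPM in S727A 1 to 3 and at 41.3 CPM in S727A 4, against 44.8, 34.4, 34.6 and 43.1 CPM in WT. S727A 4 reached the WT range, and the log2 fold change of -0.51 ± 0.20 (SE; adjusted p = 0.237 in edgeR) became -0.73 ± 0.13 without S727A 4 and WT 4 and then passed (edgeR adjusted p = 0.0338), where 1.86% of all genes did.

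Inhibitors of the pathway were the list to which Armh4 belongs by its described role. In edgeR 0 of 22 passed, 3 were higher and 0 lower at an unadjusted p under 0.05, and DESeq2 called 1. The last 2 shares were 17.8% and 3.72% over all genes. The inhibitor gene that DESeq2 called was Socs2, a suppressor of cytokine signaling. It was at 128, 109, 110 and 97.0 CPM in S727A 1 to 4, against 74.3, 89.2, 73.4 and 79.0 CPM in WT 1 to 4. All S727A values lay above all WT values, by 0.49 ± 0.10 on the log2 scale (SE; adjusted p = 0.0953 in edgeR and 0.00254 in DESeq2), the opposite direction from Armh4. In edgeR Socs2 passed without S727A 4 (adjusted p = 0.0203), a setting in which 4.71% of all genes passed. Ptpn2, a phosphatase gene acting on JAK and STAT proteins, differed by 0.40 ± 0.13 on the log2 scale (SE; adjusted p = 0.162 in edgeR), and by 0.50 ± 0.11 without S727A 4, where it passed (adjusted p = 0.0371 in edgeR). Socs3, the main feedback inhibitor at gp130, averaged 7.31 ± 2.29 CPM in S727A hearts and 6.83 ± 1.12 CPM in WT hearts (SD, n = 4; edgeR adjusted p = 0.871). The median of the list was -0.02.

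Genes of mTORC2 and AKT gave 0 calls of 25 in edgeR and 0 in DESeq2, with 2 higher and 2 lower at an unadjusted p under 0.05. Over all genes, DESeq2 called 3.72% and 17.8% had an unadjusted p under 0.05. Rictor averaged 23.0 ± 2.77 CPM in S727A hearts and 20.8 ± 2.87 CPM in WT hearts (SD, n = 4), and the log2 difference of 0.14 ± 0.13 (SE) did not pass (edgeR adjusted p = 0.581). Akt1 was at 538, 438, 423 and 354 CPM in S727A 1 to 4, against 332, 347, 326 and 355 CPM in WT 1 to 4. S727A 4 fell within the WT range, and the log2 fold change of 0.37 ± 0.11 (SE; adjusted p = 0.153 in edgeR) was 0.46 ± 0.10 without S727A 4, where it passed (edgeR adjusted p = 0.0332), as did 4.71% of all genes. Sgk1, a kinase gene of the same family, differed by 0.92 ± 0.33 on the log2 scale (SE; adjusted p = 0.22 in edgeR). Without S727A 4 it was 1.13 ± 0.24 and passed (edgeR adjusted p = 0.041).

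**Figure D3:**
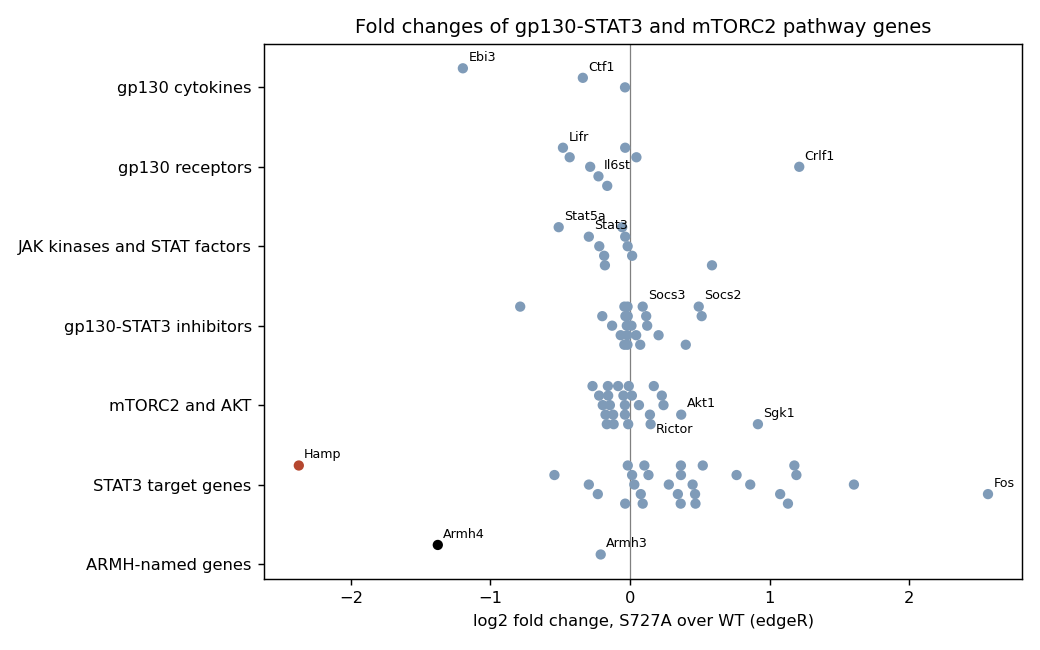
Log2 fold changes of S727A over WT for the tested members of each pathway list, 1 point per gene, spread vertically for legibility. Armh4 is black, the called gene Hamp is red and genes not called are blue. Armh4 at -1.38 lies outside the range of the receptor (-0.48 to 1.21), JAK and STAT (-0.51 to 0.59) and inhibitor (-0.79 to 0.51) genes. It lies inside that of the STAT3 target genes (-2.37 to 2.56). Armh4 was chosen for this contrast and the lists were written with earlier results of these data known, so its place among them is no evidence.

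Known STAT3 target genes were the only pathway list with a call in edgeR as reported, and DESeq2 called 1 of them as well. Over all genes, edgeR called 0.146% and DESeq2 called 3.72%. Hamp, the hepcidin gene, fell to 0.623, 0.397, 0.268 and 0.855 CPM in S727A 1 to 4, against 2.40, 4.03, 3.29 and 1.71 CPM in WT 1 to 4. Its log2 fold change was -2.37 ± 0.39 (SE, edgeR adjusted p = 0.0425), from 3 to 11 counts per library in S727A and 22 to 45 in WT. At these counts Hamp passed the low-count filter through its WT libraries, the group where it was higher, so the call is no independent evidence. The call ended under 11 of the 20 other settings, with adjusted p of up to 0.197, among them those without S727A 1, S727A 2, S727A 3, WT 1, WT 2 or WT 4. Over the 29 target genes tested the median was 0.36, with 23 folds above 0. At an unadjusted p under 0.05, 10 were higher and 3 lower, where 17.8% of all genes reached it in either direction. The list was written with earlier results of these data known, so its direction is not independent evidence.

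Genes named after the same domain were Armh3 and Armh1. Armh3 averaged 29.4 ± 1.21 CPM in S727A hearts and 34.0 ± 1.85 CPM in WT hearts (SD, n = 4), with all S727A values below all WT values. Its log2 fold change of -0.21 ± 0.08 (SE) did not pass (edgeR adjusted p = 0.223). Armh1 had 1 to 3 counts per library and was not tested.

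Neighbours of Armh4 on chromosome 14 were compared next. Of genes lying wholly within 1 Mb, edgeR called 0 of the 3 tested, with 0 at an unadjusted p under 0.05, and DESeq2 called 0. The nearest tested gene on the side of lower coordinates was Naa30, an acetyltransferase subunit gene 485 kb away, with 20.5 ± 3.72 CPM in S727A hearts and 20.1 ± 1.68 CPM in WT hearts (SD, n = 4). On the other side it was Ttc5, 982 kb away across a cluster of olfactory receptor genes, with 15.3 ± 1.03 CPM in S727A hearts and 14.7 ± 1.72 CPM in WT hearts (SD, n = 4). Log2 fold changes were 0.03 ± 0.13 for Naa30, 0.05 ± 0.12 for Ttc5, 0.03 ± 0.12 for Ap5m1 and 0.23 ± 0.12 for Exoc5 (SE), with edgeR adjusted p from 0.34 to 0.938. Each was nearer to 0 than the Armh4 value of -1.38.

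Other genes were then ranked by how closely their log2 CPM followed Armh4 over the 8 libraries. Armh4 falls into 2 separate clusters, the genotypes, so a pooled correlation largely restates the group difference, and the correlation of deviations from the group means is set beside it. Of 12997 other genes, 103 had a pooled Pearson r of at least 0.9 and 102 of at most -0.9. Within groups these numbers were 64 and 48. All are descriptions over 8 libraries that share their depth and normalization, with no p.

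Ranked by pooled r, Speg came first, which encodes a kinase of striated muscle needed for the junctions where calcium is released. It was at 314, 321, 314 and 336 CPM in S727A 1 to 4, against 422, 402, 386 and 427 CPM in WT 1 to 4. Pearson r was 0.988, Spearman rho 0.905 and within-group r 0.849, although its log2 fold change was -0.35 beside -1.38 for Armh4. Next came Btnl9, a butyrophilin-like gene, at 17.9, 18.7, 17.2 and 21.0 CPM in S727A against 27.8, 30.1, 27.2 and 30.4 CPM in WT (r of 0.983). Both had S727A 4 as the highest S727A library and WT 4 as the highest WT library, as Armh4 had.

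The others of high pooled r (0.965 to 0.971) were Rdm1 (RNA-binding, related to a recombination protein), the phosphatase genes Acp6 and Lpin1, Gid4 of a ubiquitin ligase, the kinase gene Taok2 and Rap1gap2, which acts on the small GTPase RAP1. Their within-group r ran from 0.653 for Taok2 to 0.822 for Acp6. Without S727A 4 and WT 4, over 6 libraries, within-group r stayed at 0.828 for Speg and 0.858 for Rdm1. It was 0.293 for Btnl9, 0.272 for Gid4, 0.265 for Acp6, 0.12 for Lpin1, 0.0072 for Taok2 and -0.679 for Rap1gap2, so for these the likeness within groups rested on S727A 4 and WT 4. The Poisson intervals of the Armh4 counts overlap among S727A 1 to 3 and among WT 1 to 3. Within-group r over these 6 libraries is therefore a weak description, whether high or low.

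In the opposite direction, Dapk3, a kinase gene of the death-associated family, had the lowest pooled r at -0.986. It was at 39.2, 37.3, 39.9 and 36.8 CPM in S727A 1 to 4, against 29.4, 29.2, 31.0 and 27.8 CPM in WT 1 to 4, and library 4 was the lowest of each group. The remaining genes of lowest r (-0.976 to -0.956) were Psma5 of the proteasome, Ehd4 of endocytic membranes, the splicing factor gene Sf3b6, S100a13, Wdr37, the prefoldin subunit gene Pfdn1 and Rtn4 of the endoplasmic reticulum. The ranks of Wdr37 mirrored those of Armh4 without exception, with a Spearman rho of -1. Within groups, r was between -0.883 and -0.515 over these 8 genes. Without S727A 4 and WT 4, over 6 libraries, it ran from -0.836 for Rtn4 to -0.201 for Psma5, and it was -0.539 for Dapk3, beside -0.812 over 8 libraries. The limit by counting error given above holds for these 6-library values too.

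**Figure D4:**
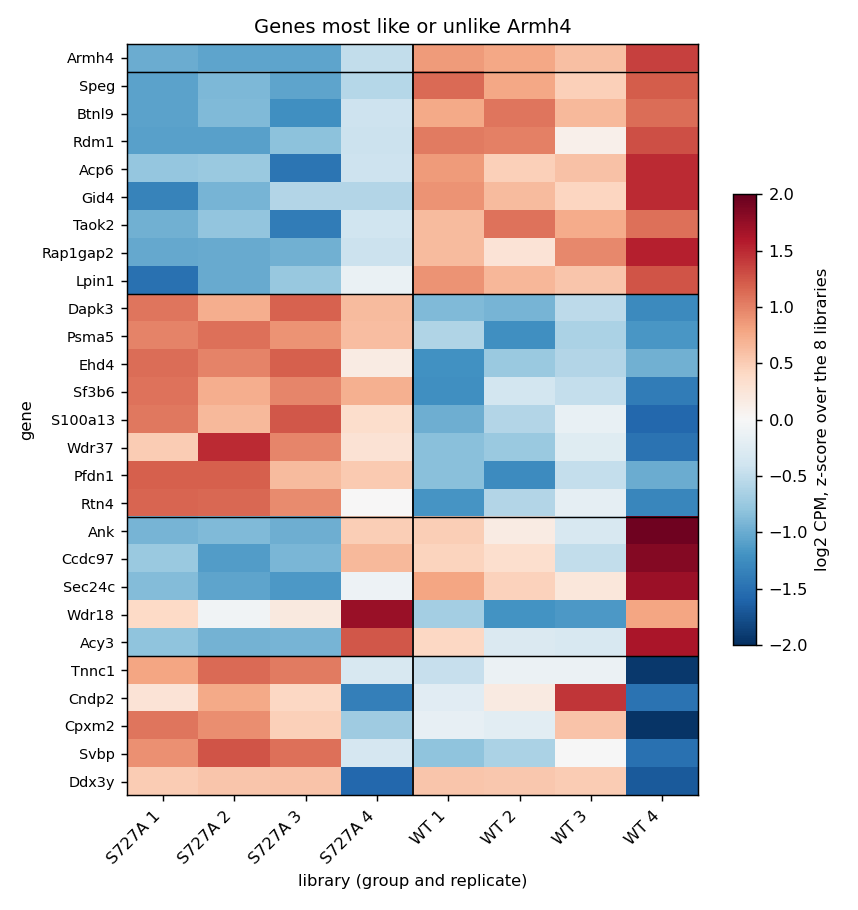
Log2 CPM of Armh4 and of the genes most like or unlike it, as z-scores of each gene over the 8 libraries (red high, blue low), with S727A libraries left of WT libraries. Blocks from the top are Armh4, the 8 genes of highest and the 8 of lowest pooled r, and the 5 of highest and the 5 of lowest within-group r. In the blocks chosen within groups, S727A 4 and WT 4 are each the highest (upper block) or lowest (lower block) library of their group. The pooled blocks separate the genotypes, and so does Sec24c in a within-group block.

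Ranked within groups alone, Ank, a pyrophosphate transporter gene, came first with r = 0.994 over 8 libraries and a pooled r of 0.807. It was at 261, 263, 260 and 315 CPM in S727A 1 to 4, against 315, 302, 283 and 382 CPM in WT 1 to 4, so the groups met while library 4 was high in each. Ccdc97 (0.992), Sec24c of the vesicle coat that leaves the endoplasmic reticulum (0.989), Wdr18 (0.978) and Acy3 (0.969) followed. Sec24c combined both, with a pooled r of 0.961. The lowest within-group r belonged to Tnnc1, the cardiac troponin C gene (-0.981), then Cndp2 (-0.967), Cpxm2 (-0.966), Svbp (-0.965) and Ddx3y (-0.964). Without S727A 4 and WT 4, over 6 libraries, r was 0.939 for Ank, 0.974 for Ccdc97, 0.915 for Sec24c, -0.983 for Cndp2 and -0.986 for Svbp. It was nearer to 0 for the other 5 genes, at 0.626 for Wdr18, 0.746 for Acy3, -0.717 for Tnnc1 and -0.641 for Cpxm2, and at 0.324 for Ddx3y. In these 6 libraries the counting intervals of Armh4 overlap within each group, so these values too are weak descriptions.

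Markers of the cell types in a heart were compared with Armh4 in the same way, beside medians of 0.01 (pooled) and 0.02 (within groups) over all genes. Pericyte markers, of the cells that wrap capillaries, had the highest medians, 0.86 pooled and 0.51 within groups, with 8 of 8 and 7 of 8 genes above 0. Their summed level was 1038 to 1311 CPM in S727A and 1362 to 1822 CPM in WT, without overlap. All 8 had a log2 fold change below 0, with a median of -0.31, from -0.79 for Abcc9, a potassium channel regulator, to -0.17 for Notch3. In edgeR 0 of 8 passed (adjusted p from 0.119), 7 had an unadjusted p under 0.05, and DESeq2 called 3. Among all genes, 17.8% had an unadjusted p under 0.05 and DESeq2 called 3.72%.

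Macrophage markers had positive correlations with Armh4 over all libraries and mostly negative ones within groups. Their summed level was 334 to 464 CPM in S727A and 498 to 718 CPM in WT, without overlap, and the median r was 0.68 pooled and -0.47 within groups. Of 12 genes, all had a log2 fold change below 0, 10 had an unadjusted p under 0.05 and DESeq2 called 6. Among all genes, 17.8% had an unadjusted p under 0.05, DESeq2 called 3.72% and edgeR called 0.146%. In edgeR 1 of the 12 fell, Cbr2, a carbonyl reductase gene, at -1.52 ± 0.20 (SE, adjusted p = 0.0265). That call ended under 6 of the 20 other settings, with adjusted p of up to 0.145, among them those without S727A 1, S727A 3, WT 1 or WT 4. Fibroblast and activated fibroblast markers lay on the other side, with pooled medians of -0.57 for each list, and within groups of -0.24 and -0.43. No pericyte or macrophage marker had a group mean under 6.86 CPM, and the part of these cells in the Armh4 difference was not tested.

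**Figure D5:**
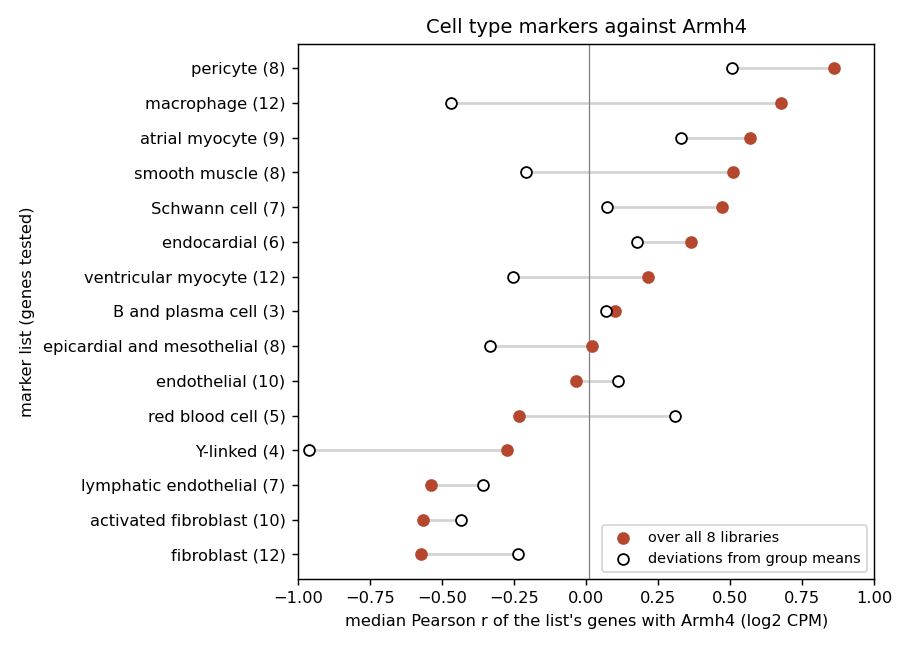
Median Pearson r with Armh4 of the genes in each marker list (number tested in brackets), over all 8 libraries (filled) and over deviations from group means (open). The grey line is the pooled median of all genes, 0.01. Pericyte markers stand highest on both measures, and macrophage markers change side between them.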

How the data were processed

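RNA of whole hearts was extracted with Trizol and made into 8 stranded mRNA libraries by BGI for DNBSEQ, per the labels' protocols. FastQC, HISAT2, Bowtie2 and GRCm38.p6 are named in the submitters' processing notes. The program that counted reads was not given in the sources used here. The deposited table holds, per the file headers, estimated counts and FPKM of each gene in each library and the authors' own group averages, log2 ratio, p-value and q-value, of which 1 log2 ratio is quoted. Between 6.06% and 7.62% of estimated counts in a library were not whole (tolerance 1e-06). Its text annotations stand in rows of other genes (that of Armh4 is in another row) and were not used. Symbols, gene IDs and values were taken to belong to their row. The implied length of Armh4 and the Y-linked genes fit this, and other rows were not checked one by one.

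Counts were rounded and filtered with filterByExpr (minimum count 10, minimum total 15), which left 12998 genes. They were tested with edgeR 4.0.16 (R 4.3.3), TMM, robust dispersion and the legacy quasi-likelihood F test, with genotype as the only term. Calls are at a Benjamini-Hochberg adjusted p under 0.05. Log2 CPM used a prior count of 2. DESeq2 1.42.0 and limma 3.58.1 were alternatives. The procedure was tested on data simulated for each gene independently, without deviations shared by the genes of a library. That is no check of the calls made here. As the labels tie no library to an animal, n counts libraries and p-values speak only of the spread among these 8 libraries. Part of that spread may be technical.

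Armh4 and the gene lists were chosen with earlier results of these data known. Genes named were Armh4, Il6st, Stat3, Rictor and Socs3, list members past the threshold or else the 2 of smallest p, the 8 genes of highest and lowest pooled r, the 5 of highest and lowest within-group r (mean log2 CPM of at least 1, established symbol), and neighbours. Ligands near the detection limit, Armh1, Abcc9, Notch3, Cbr2, Gm36146 and the overlap of groups were described after their values were seen. Coordinates are from GENCODE M21 on GRCm38.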

Additional observations from a re-analysis of the deposited data

Results flagged for a closer look

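In 88 sets of 4 libraries (each named gene in each group), 7 had a library whose gap to its nearest neighbour took up more of the range than Dixon's 95% critical value for 4 samples allows. Chance alone gives this in about 5% of sets, and genes picked for following Armh4 share its outlying library. For Armh4 it was S727A 4, at 7.22 CPM against 5.32 to 5.53 CPM in the other S727A libraries (ratio 0.877). This is a description, since Armh4 was chosen by these values and the ratio takes no account of counting error. The same library stood apart for Rap1gap2 (141 against 132 to 133 CPM, 0.894), Ank (315 against 260 to 263 CPM, 0.936), Acy3 (39.0 against 26.0 to 26.6 CPM, 0.939) and Ddx3y (0.155 against 71.7 to 86.3 CPM, 0.967). For Ddx3y it was WT 4 as well, at 0.0779 against 73.3 to 83.6 CPM (0.978). For Lifr it was WT 2, at 66.1 against 49.3 to 49.6 CPM (0.976).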

How the results depend on the processing

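The Armh4 log2 fold change was below 0 under all 20 other settings. It was -1.07 on log2(FPKM + 1), where the pseudocount shrinks low genes, -1.49 to -1.24 with each library left out, and within 1 SD between replicates (0.227 log2 CPM) of the reported value in all settings but FPKM + 1. Genes called numbered 19 as reported, 513 in DESeq2, 6 in limma voom, 2 with the replicate block, 6 on log2(FPKM + 1), 4 on log2(FPKM + 0.1), 242 without S727A 4 and WT 4, 0 without WT 1 and WT 4, and 0 to 617 with each library left out (617 with S727A 4 left out, 275 with WT 3, 15 with WT 2, 8 with S727A 2, 2 with WT 4, and 0 with any of S727A 1, S727A 3 and WT 1). Pathway genes called numbered 1 as reported, 3 in DESeq2 and without S727A 4 and WT 4, 0 in limma voom, on log2(FPKM + 0.1), with the replicate block, without WT 1 and WT 4 and with the Y-linked covariate, and 0 to 9 with each library left out (9 for S727A 4, 3 for WT 3 and 0 for each of the others). No setting called a gene within 1 Mb. The pooled count of 205 genes with an absolute r of at least 0.9 was 1026 without S727A 4 and WT 4, 453 without WT 1 and WT 4 and 244 to 546 with each library left out. The within-group count of 112 was 904, 792 and 157 to 460. Fewer libraries make large correlations more frequent by construction.

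Of 340 values of 17 named genes under these settings, 306 kept direction and side of the threshold, 11 lost the call (all Hamp) and 9 gained one (Socs2 and Lifr in DESeq2, Stat5a, Socs2, Ptpn2, Akt1 and Sgk1 without S727A 4, and Stat5a and Socs2 without S727A 4 and WT 4). Those that turned were Naa30 (-0.0050 on log2(FPKM + 1) and -0.0088 on log2(FPKM + 0.1)) and Ap5m1 (-0.043 and -0.050 there, -0.0070 without S727A 4 and WT 4). With each library left out, Naa30 ran from -0.059 to 0.131, Ap5m1 from -0.040 to 0.101, Socs3 from -0.104 to 0.262, Ttc5 from -0.016 to 0.122 and Ebi3 from -1.49 to 0.040 (the highest without WT 3). None of these passed. The cause was not tested.

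Same-numbered libraries did not deviate together over genes (r of -0.05, -0.10, 0.06 and 0.07 for numbers 1 to 4). This does not settle whether the numbers pair animals, which the labels do not state. S727A 4 and WT 4 share the near absence of Y-linked reads. The replicate block gave -1.37 for Armh4. The legacy FALSE mode and the Y-linked covariate were added after the data were seen. Depth limits Armh4 to 60 to 247 counts per library.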

Other observations

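Of the 16 genes of highest or lowest pooled r with Armh4, 5 lie on chromosome 11 (31.2%), which carries Stat3 and holds 8.36% of the 12824 tested genes with coordinates. They are Btnl9, Rdm1, Gid4, Rap1gap2 and Rtn4. Rdm1 (101627195 to 101636100, GRCm38) lies 688 kb from Stat3, and the others lie 26300 kb or more away. Of the 10 genes chosen by within-group r, 0 lie on chromosome 11. This was noticed after the values were seen and was not tested.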
